A study of Mus musculus with 7 samples.

Results

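The eicosanoid synthesis enzymes described here are the gene products that release arachidonic acid from membranes and turn it into prostaglandins, thromboxane, prostacyclin, hydroxy fatty acids and leukotrienes. The list holds 10 genes, namely Alox12, Alox5, Alox5ap, Ptgs1, Ptgs2, Tbxas1, Ptgis, Ptges, Pla2g4a and Ltc4s. Its members were all probe sets whose only gene symbol in the platform annotation is on that list, which gave 13 probe sets of 9 genes among 45101 probe sets on the array. No probe set carried Ptgs1 as its only symbol, so that gene is not analysed here. The list was chosen by the measured differences between the sorted populations, which were in view when it was proposed, so the differences of its members are given as a description without a test.

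Cells were sorted by flow cytometry from marrow of young adult C57Bl/6J mice (wild type, 6 to 12 weeks of age), and amplified RNA from 1800 to 10000 cells per sample was hybridised to 7 Affymetrix Mouse Genome 430 2.0 arrays. The CD54+CD31-BP1+ cells, labelled stromal, gave 4 arrays (stromal 1 to 4), and the CD54-CD31+ cells, labelled endothelial, gave 3 (endothelial 1 to 3). Both were gated as CD45-negative and lineage-negative, and the labels name no transgene or treatment for either. The labels do not say whether replicates came from separate mice or sorts, so p-values measure only the spread between these samples, which may be technical.

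Values are deposited log2 expression values, and every difference is stromal minus endothelial. A level below an array's 40th percentile, which lay between 5.48 and 5.79, is treated here as dim, and no fold is given where the mean of either population is dim. The levels of different probe sets are not set against each other. In these sorted bulk samples, fewer cells of a type and less RNA per cell cannot be told apart.

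The label of the second population was checked against markers. Of 10 endothelial markers, 6 could be tested and 4 were higher on the endothelial samples. These were Esam (mean of 7.08 on the stromal against 12.09 on the endothelial samples), Plvap (5.28 against 8.86), Pecam1 (4.93 against 8.41) and Kdr (6.63 against 8.71). Stab2 and Eng were tested and not called, and they leaned opposite ways. Stab2 was higher on the endothelial samples (6.47 on the stromal against 7.07), and Eng was higher on the stromal samples (8.43 against 7.49). Cdh5 lay at 4.48 to 4.74 on the stromal and 5.19 to 5.67 on the endothelial samples, and Emcn at 3.41 to 4.14 and 4.11 to 4.19. Both of these endothelial genes were thus dim on all 7 arrays. All 9 megakaryocyte and platelet markers on the array were higher on the endothelial samples, with a mean over the markers of 6.21 to 8.86 on the stromal and 13.59 to 13.90 on the endothelial samples. Stromal 4 had the highest of the stromal values. All 8 reticular stroma markers were higher on the stromal samples. The mean of 18 hybridisation control probe sets was 9.51 to 9.67 on the stromal samples, and 9.75, 11.33 and 11.37 on endothelial 1 to 3. With that split as a block, endothelial 1 alone stands for its population.

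Eicosanoids are short-lived lipid signals that act near the cell that makes them. Cytosolic phospholipase frees arachidonic acid, and cyclooxygenases turn it into a prostaglandin intermediate, from which terminal synthases make thromboxane, prostacyclin or prostaglandin E. Lipoxygenases act on the same acid, giving hydroxy fatty acids in platelets and leukotrienes in myeloid cells. Platelets are known for thromboxane, which promotes their aggregation, and vessel walls for prostacyclin, which opposes it.

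Across the members, the enzymes of thromboxane and hydroxy fatty acid synthesis and the activator of leukotriene synthesis were far higher on the endothelial samples, prostacyclin synthase was higher on the stromal samples, and the other prostanoid enzymes measured were dim or close between the populations. Of the 13 probe sets, 11 passed the filter of at least 3 arrays above their own 40th percentile, and both Ptgs2 probe sets did not. A probe set was called where its limma adjusted p lay under 0.05 and its log2 difference reached 1. By that rule 1 member probe set was called toward the stromal samples, where 26.0% of the 29438 probe sets tested were, and 6 toward the endothelial samples, where 14.6% were. The populations did not overlap in 8 of the 11, against 61.6% of all probe sets tested. These counts describe how the list was chosen, and nothing is read from them. Over all 13 probe sets the median difference was -1.23, and over all probe sets tested it was 0.07.

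**Figure D1:**
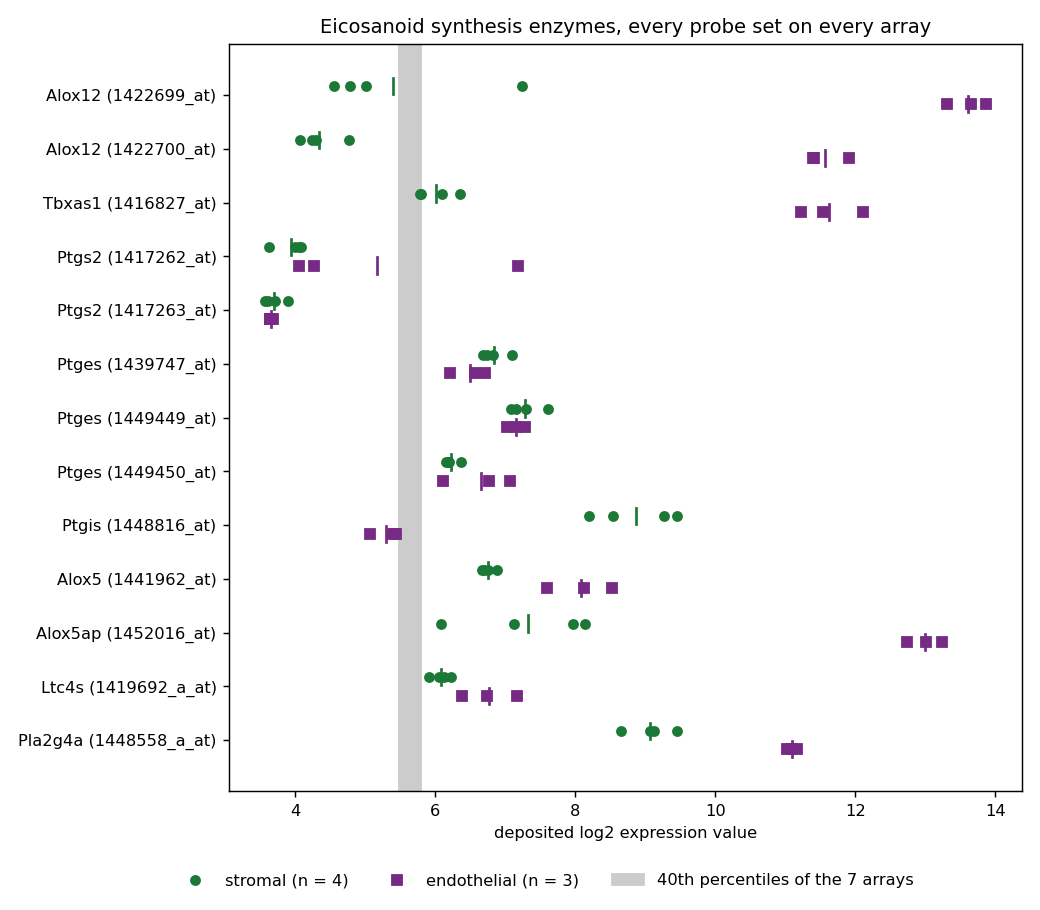
Deposited log2 expression value (horizontal axis) of each member probe set (rows) on each array, with circles for the 4 stromal samples, squares for the 3 endothelial samples and short bars for their means; the grey band spans the arrays' 40th percentiles. The Alox12, Tbxas1 and Alox5ap squares lie far to the right of their circles, the Ptgis circles lie to the right of their squares, and 1 Ptgs2 square, endothelial 2 at 7.19, stands apart.

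Alox12, the platelet lipoxygenase that makes the hydroxy fatty acid of platelets, had the largest difference among the members. Its probe set 1422699_at lay at 4.55, 4.79, 5.02 and 7.24 on stromal 1 to 4, against 13.87, 13.31 and 13.65 on endothelial 1 to 3. The values of stromal 1 to 3 are dim and stromal 4 stands above them, while the endothelial values are close to each other and far above all 4. The difference was -8.22 (5.40 ± 1.24, SD, n = 4, against 13.61 ± 0.28, n = 3). The second probe set, 1422700_at, lay at 4.07, 4.30, 4.24 and 4.76 on the stromal samples, against 11.92, 11.39 and 11.41 on the endothelial samples. All 4 of its stromal values are dim, stromal 4 included, and the difference was -7.23 (4.34 ± 0.30 against 11.57 ± 0.30). Both probe sets thus show the same direction, and with 1 array at a time left out the differences ranged from -8.83 to -7.93 and from -7.37 to -7.06.

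Every platelet marker on the array was highest among the stromal samples on stromal 4, as was Alox12, but by unlike amounts. Ppbp, which encodes a platelet chemokine, lay at 4.30, 4.24, 3.75 and 10.19 on stromal 1 to 4, against 14.35, 14.13 and 14.14 on the endothelial samples. Tubb1, the platelet beta-tubulin gene, lay at 10.32 on stromal 4 and at 5.82 to 6.24 on the other 3. Pf4 lay at 9.70, 6.58, 6.61 and 9.73 on stromal 1 to 4, so stromal 1 was nearly as high as stromal 4. Gp9 moved little, at 6.85, 6.57, 6.48 and 7.03. Platelet markers above the 40th percentile numbered 6, 7, 6 and 9 of 9 on stromal 1 to 4, and 9 of 9 on each endothelial array. Their part in the Alox12 value of stromal 4 was not tested. Without stromal 4 the difference of 1422699_at was -8.83.

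The genes whose profile over the 7 arrays was nearest to that of Alox12 were Ctla2a, Parvb, Tesc and Mmrn1, with root mean square distances of 0.49, 0.49, 0.50 and 0.54 between mean-centred log2 profiles. Mmrn1 encodes multimerin-1, a protein of platelet granules. Each of the 4 was highest among the stromal samples on stromal 4, where Ctla2a lay at 8.46, Parvb at 7.38, Tesc at 7.22 and Mmrn1 at 6.71. The genes were picked by their nearness to Alox12 on these same arrays, so nothing further is read from that shared order.

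Tbxas1, thromboxane synthase, was the other measured enzyme of platelet products. It lay at 5.79, 5.80, 6.09 and 6.36 on stromal 1 to 4, against 12.11, 11.23 and 11.54 on endothelial 1 to 3. All stromal values sit just above the 40th percentiles, with stromal 4 again the highest, and the populations are widely separated. The difference was -5.61 (6.01 ± 0.27 against 11.63 ± 0.45), or 49.0-fold. The mean of Alox12 and Tbxas1, taking the brighter Alox12 probe set, was 5.17, 5.29, 5.56 and 6.80 on the stromal samples and 12.99, 12.27 and 12.59 on the endothelial samples, a difference of -6.92.

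The upstream sequences of both genes are shown because they are the measured members that make the platelet products and lie high together on the endothelial samples. They are the 250 bases before the annotated start, on the gene's own strand, from RefSeq on GRCm38.p6. Capitals mark matches to any of 6 motifs that were searched on either strand. GATAA is the core bound by GATA factors. TGANTCA is that of NF-E2 and AP-1. CCGGAAG stands for ETS factors and TGTGGT for RUNX factors. TATAAA is the TATA box, and GGGCGG is the GC box.
Alox12, chr11:70255371-70255620, minus strand: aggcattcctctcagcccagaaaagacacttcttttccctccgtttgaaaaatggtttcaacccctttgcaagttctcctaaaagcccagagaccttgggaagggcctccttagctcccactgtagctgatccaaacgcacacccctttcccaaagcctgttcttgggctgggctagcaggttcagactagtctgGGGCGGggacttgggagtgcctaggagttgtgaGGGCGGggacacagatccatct
Tbxas1, chr6:38918736-38918985, plus strand: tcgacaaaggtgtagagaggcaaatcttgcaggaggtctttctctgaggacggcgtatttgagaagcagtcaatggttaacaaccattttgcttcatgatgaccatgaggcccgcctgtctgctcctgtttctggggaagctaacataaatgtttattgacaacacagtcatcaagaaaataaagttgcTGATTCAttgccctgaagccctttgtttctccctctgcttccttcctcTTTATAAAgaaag
The windows of these genes hold different motifs. The Alox12 window has GC box matches that begin 55 and 22 bases before the start, and no match to the other motifs. The Tbxas1 window has a TGANTCA match that begins 61 bases before the start and overlapping TATAAA matches, 1 on each strand, that begin 13 and 11 bases before it. Of 32851 promoter windows of the same length in the RefSeq table, 32.7% hold a GC box match, 6.75% a TGANTCA match and 12.4% a TATAAA match. A GATAA match was in 22.6% of all windows, and among the members in windows of Alox5 and Pla2g4a. Entries were found for 8 of the 10 genes, in 9 windows, and none for Ptgis and Alox5ap. A match is a description of letters and not a binding site.

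Ptgis, prostacyclin synthase, was the single member called toward the stromal samples. It lay at 8.54, 9.27, 9.46 and 8.19 on stromal 1 to 4, against 5.08, 5.44 and 5.40 on endothelial 1 to 3. All endothelial values are dim, and every stromal value lies well above them. The difference was 3.56 (8.87 ± 0.60 against 5.30 ± 0.20), and 3.37 to 3.79 with 1 array at a time left out. Nearest to its profile were Plxna2, Fam171b, Akap2 and Fgf13, with root mean square distances of 0.17, 0.17, 0.22 and 0.25. In each of these 4 genes, as in Ptgis, stromal 4 was the lowest of the stromal samples, which follows in part from picking them by that profile.

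Ptgs2, the inducible cyclooxygenase, was dim on every stromal array in both probe sets. Probe set 1417262_at lay at 3.62 to 4.08 on the 4 stromal samples, against 4.06, 7.19 and 4.26 on endothelial 1 to 3. Endothelial 2 alone stands apart, and the other arrays of both populations overlap. The difference was -1.23 (3.94 ± 0.22 against 5.17 ± 1.75), and -0.22 without endothelial 2. The second probe set, 1417263_at, lay at 3.57 to 3.90 on the stromal and 3.64 to 3.68 on the endothelial samples, with no array standing apart.

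Marker means of several leukocyte types, myeloid and B lineage, were also highest on endothelial 2. The mean of 7 mast cell and basophil markers was 5.12 to 5.93 on the stromal samples and 7.25, 8.54 and 7.25 on endothelial 1 to 3. Mcpt8, a basophil protease gene, lay at 5.43 to 7.16 on the stromal samples and at 9.29, 12.00 and 6.72 on endothelial 1 to 3. The mean of 9 neutrophil markers was 7.84 to 10.09 on the stromal samples and 11.86, 12.55 and 9.54 on endothelial 1 to 3. Within the mast cell and basophil list, Gata2 was lowest on endothelial 2 (12.44, 11.74 and 12.46 on endothelial 1 to 3), Ms4a2 highest on endothelial 1 and Cma1 on endothelial 3. The mean of 7 B-lineage markers was 6.78 to 7.47 on the stromal samples and 7.48, 9.23 and 7.31 on endothelial 1 to 3. That mean includes Ebf1, which was higher on the stromal samples (11.37 against 7.64). The part of these transcripts in the Ptgs2 value was not tested.

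Ptges, the inducible microsomal prostaglandin E synthase, showed no called difference in any of 3 probe sets. Probe set 1449449_at lay at 7.09, 7.16, 7.29 and 7.61 on the stromal samples, against 7.03, 7.16 and 7.28 on the endothelial samples. The populations overlap, with a difference of 0.13 that turned to -0.27 after a second quantile normalization and to -0.17 after cyclic loess. Probe set 1439747_at had a difference of 0.34 (6.69 to 7.10 against 6.22 to 6.71) and 1449450_at of -0.42 (6.16 to 6.36 against 6.11 to 7.07). The probe sets of the gene therefore differ in sign, and in each the populations overlap.

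The working name of a stromal prostanoid arm, made of Ptgs2, Ptges and Ptgis, is borne by Ptgis alone in these data. The mean of the 3 genes was 6.57, 6.83, 6.79 and 6.60 on the stromal samples and 5.39, 6.59 and 5.65 on the endothelial samples, so that endothelial 2, through Ptgs2, overlaps with stromal 1. The difference of that mean was 0.82. With endothelial 1 alone standing for its population it was 1.31.

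Alox5ap, the membrane protein that presents arachidonic acid to the leukotriene-making lipoxygenase, lay at 7.97, 8.14, 6.08 and 7.13 on stromal 1 to 4, against 13.24, 12.74 and 13.01 on endothelial 1 to 3. The endothelial values are close together, and the stromal values are spread over a wider range with stromal 3 the lowest. The difference was -5.66 (7.33 ± 0.95 against 12.99 ± 0.25), or 50.7-fold. Alox5, the lipoxygenase itself, lay at 6.66, 6.89, 6.76 and 6.70 on the stromal samples, against 8.13, 8.53 and 7.60 on the endothelial samples. The populations do not overlap, but the difference of -1.33 (6.75 ± 0.10 against 8.09 ± 0.46), or 2.52-fold, is far smaller than that of Alox5ap. Ltc4s, which joins glutathione to the leukotriene intermediate, lay at 6.05, 6.13, 5.92 and 6.22 on the stromal samples, against 6.38, 6.74 and 7.17 on the endothelial samples. The populations do not overlap, but the difference of -0.69 is below the size required for a call, and it was -0.30 with endothelial 1 alone against the stromal samples.

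The spread of Alox5ap over the stromal samples ran beside that of some leukocyte transcripts and not of others. Ptprc, which encodes CD45, lay at 7.01, 7.42, 4.91 and 6.45 on stromal 1 to 4, and at 9.36, 10.94 and 8.63 on endothelial 1 to 3. Lyz2, a lysozyme gene of myeloid cells, lay at 10.09, 9.95, 7.41 and 9.11 on the stromal samples, and at 13.53, 13.34 and 13.41 on the endothelial samples. In both genes, as in Alox5ap, stromal 1 and 2 are the highest and stromal 3 the lowest of the stromal samples. Among neutrophil markers, Ctsg, Ltf, Camp, S100a8 and Ngp were also lowest on stromal 3, but Mpo, Elane, Prtn3 and S100a9 on stromal 4. Fcgr1 was lowest on stromal 1 and Cd14 on stromal 2, and the other monocyte and macrophage markers on stromal 3. On the endothelial samples Ptprc was highest on endothelial 2, where Alox5ap was lowest. Of 7 monocyte and macrophage markers tested, 4 were higher on the endothelial samples and 1, Cd14, on the stromal samples, with a mean over the markers of 6.22 to 7.23 on the stromal and 8.11 to 9.09 on the endothelial samples. Their part in the Alox5ap values was not tested.

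**Figure D2:**
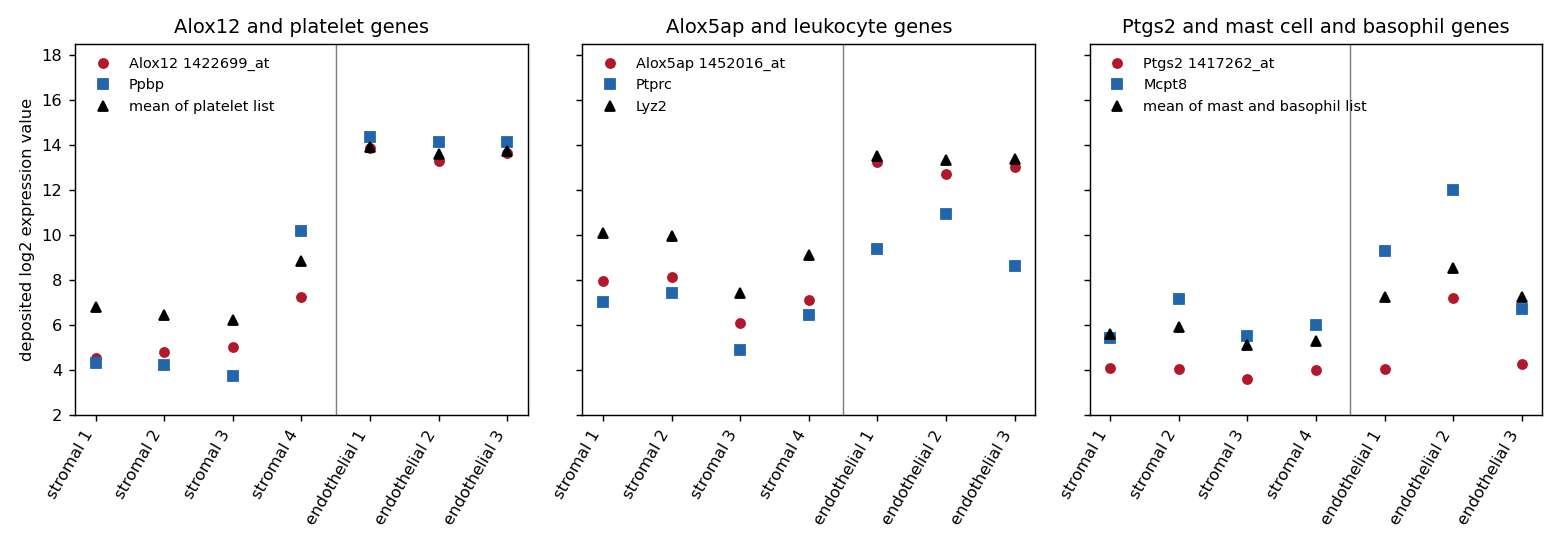
Deposited log2 expression values (vertical axis) on each array (horizontal axis, stromal 1 to 4 left of endothelial 1 to 3) of Alox12 with platelet genes, Alox5ap with leukocyte genes and Ptgs2 with mast cell and basophil genes. Alox12 and Ppbp are both highest among the stromal samples on stromal 4 (7.24 and 10.19), Alox5ap, Ptprc and Lyz2 are lowest on stromal 3, and Ptgs2 and Mcpt8 are highest on endothelial 2 (7.19 and 12.00).

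Pla2g4a, the cytosolic phospholipase that frees arachidonic acid for all of these enzymes, lay above the 40th percentile on every array. It lay at 8.65, 9.45, 9.12 and 9.07 on stromal 1 to 4, against 11.10, 11.17 and 11.02 on endothelial 1 to 3. The endothelial values lie in a narrow range above all stromal values. The difference was -2.02 (9.08 ± 0.33 against 11.10 ± 0.07), or 4.06-fold.

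**Figure D3:**
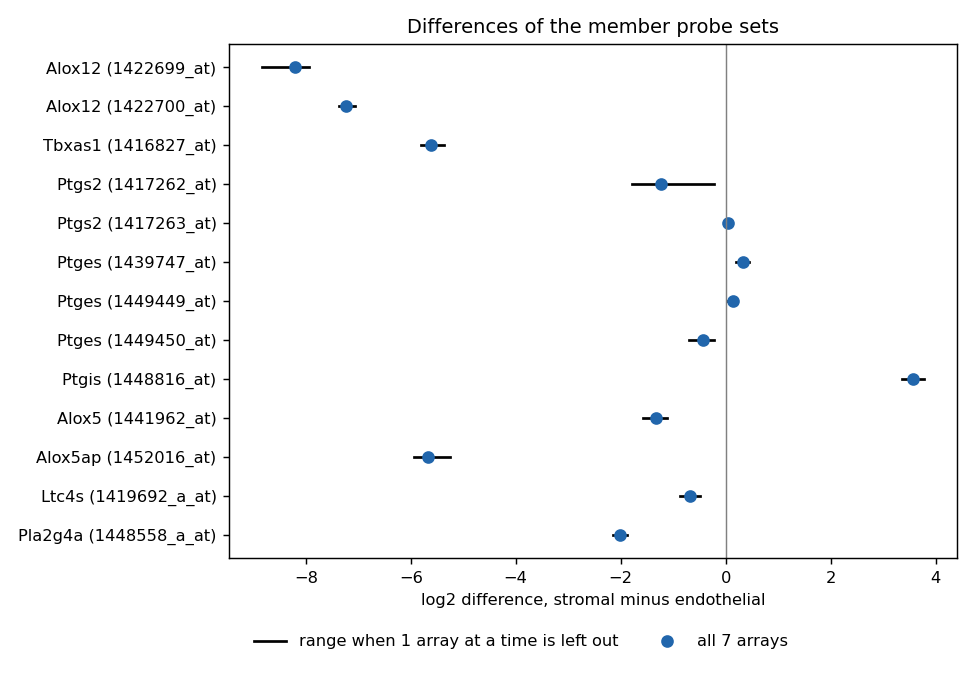
Log2 difference, stromal minus endothelial (horizontal axis), of each member probe set (rows), with a point for all 7 arrays and a line for the range when 1 array at a time is left out. Ptgis is at 3.56, both Alox12 probe sets lie below -7, and the widest line is that of Ptgs2 1417262_at, from -1.78 to -0.22.

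The other genes of the pathway that act before, beside or after the members were split between the populations. Of 62 such genes 56 were on the array and 46 were tested. By limma, with p-values adjusted by Benjamini-Hochberg across the 13995 genes tested, 17 were higher on the stromal samples, where 30.9% of all genes tested were called, and 9 on the endothelial samples, where 16.1% were. The remaining 20 passed neither way. After a second quantile normalization the split was 15 and 12. The median difference was 0.28, and over all genes tested it was 0.19.

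Of the 4 receptors for prostaglandin E, 2 were higher on the stromal samples, as was the receptor for prostaglandin F, while the prostacyclin receptor was higher on the endothelial samples. Of 9 prostanoid receptors tested, 3 were higher on the stromal samples, 1 on the endothelial samples and 5 passed neither way. Ptgir, the prostacyclin receptor, lay at 7.14, 7.04, 7.07 and 7.02 on stromal 1 to 4, against 11.05, 10.14 and 11.83 on endothelial 1 to 3, so the populations are far apart. The difference was -3.94 (limma adjusted p = 3.68e-05), or 15.4-fold, and ran opposite to that of Ptgis, the enzyme that makes its ligand. Ptgfr, the receptor for prostaglandin F, lay at 12.06, 11.73, 11.78 and 12.38 on the stromal samples, against dim values of 4.71, 5.56 and 5.47 on the endothelial samples. Its difference was 6.74 (adjusted p = 4.99e-07, limma), and 0.13 to 4.57 in its 4 other probe sets. Of the receptors for prostaglandin E, Ptger2 and Ptger4 were higher by 2.91 and 1.92 (limma adjusted p = 2.81e-05 and 0.00399). With endothelial 1 alone standing for its population, Ptger4 missed the threshold (1.67, limma adjusted p = 0.0600). The other receptors for prostaglandin E, named after their values were seen, leaned toward the endothelial samples without a call. Ptger1 lay at 5.74 to 5.88 on the stromal and 6.54 to 7.17 on the endothelial samples, and its difference of -0.99 (limma adjusted p = 0.00281) fell just short of the required size. Ptger3 lay at 5.26 to 6.02 on the stromal samples and at 8.18, 8.55 and 4.78 on endothelial 1 to 3, which overlap, and its difference was -1.40 (limma adjusted p = 0.155). Tbxa2r, the thromboxane receptor, named after its values were seen, did not pass (8.94 ± 0.15 against 8.72 ± 0.27, a difference of 0.23 with a 95% interval of -0.22 to 0.67, limma adjusted p = 0.317).

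Enzymes that trim cysteinyl leukotrienes were among the pathway genes most raised on the stromal samples. Dpep1, a membrane dipeptidase that cleaves leukotriene D, lay at 13.98 to 14.08 on the stromal samples, against 6.41, 9.23 and 6.19 on endothelial 1 to 3. Endothelial 2 stands above the other endothelial samples, and all stromal samples lie far above it. The difference was 6.75 (limma adjusted p = 6.13e-05), or 108-fold. It was 7.73 without endothelial 2, and 5.24 in the second probe set of the gene. Ggt5, which cleaves leukotriene C, was higher by 5.14 (11.72 ± 0.26 against 6.58 ± 0.28, adjusted p = 6.41e-07). Its probe set 1439420_x_at had a difference of 1.05 and the remaining one 5.19. Mgst2, which can make leukotriene C, was higher on the endothelial samples, with a difference of -2.78 (7.56 ± 0.66 against 10.35 ± 0.89, adjusted p = 0.00144). Lta4h, which makes leukotriene B and was named after its values were seen, did not pass, with a difference of 0.92 and an adjusted p of 0.214. Ltb4r1, the leukotriene B receptor of leukocytes, stood at -2.89 (7.28 ± 0.40 against 10.17 ± 0.73, limma adjusted p = 2.76e-04). Cyp4f18, which inactivates leukotriene B in mouse neutrophils, stood at -1.72, and at -0.88 without a call in its second probe set.

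Of 4 further prostanoid synthases tested, 3 were higher on the stromal samples and none on the endothelial samples. Prxl2b, which makes prostaglandin F and related prostamides, was higher by 2.43 (10.75 ± 0.13 against 8.32 ± 0.87, limma adjusted p = 7.22e-04). Cbr1, a carbonyl reductase that can turn prostaglandin E into F, was higher by 2.17 (adjusted p = 4.86e-04). Ptges2, a further prostaglandin E synthase, was higher by 1.56 (8.55 ± 0.21 against 6.99 ± 0.70, adjusted p = 0.00330), and by 0.99 and short of the required size after cyclic loess. The epoxide arm had 4 of 7 genes higher on the stromal samples and 1 on the endothelial samples. They include both epoxide hydrolases, Ephx1 at 4.95 and Ephx2 at 2.90.

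Genes of arachidonate supply and of prostanoid transport went both ways. Of 11 supply genes tested, 3 were called toward the stromal samples and 4 toward the endothelial samples. Pla2g12a, a secreted phospholipase, stood at -3.95 (5.76 ± 0.25 against 9.71 ± 0.10, limma adjusted p = 1.22e-06), and Pla2g10, another, at -1.90. Mboat7, which places arachidonate into phosphatidylinositol, stood at -1.76, with -2.68 in probe set 1447846_x_at and 0.45, without a call, in 1457997_at. Fads1, a desaturase on the path to arachidonate, was higher on the stromal samples by 3.06 (10.16 ± 0.14 against 7.10 ± 0.43, adjusted p = 1.34e-05), and by 0.39 in its second probe set. Of 6 genes of breakdown and transport, 2 were higher on the stromal samples and 1 on the endothelial samples. Abcc4, an exporter of prostanoids that platelets also carry, stood at -3.29 (7.56 ± 0.11 against 10.85 ± 0.25, adjusted p = 2.57e-06). Slco2a1, which takes up prostaglandins, was higher by 1.75 (adjusted p = 0.00189), and by 0.22 and short of the threshold with the mean of its 4 probe sets (adjusted p = 0.264).

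**Figure D4:**
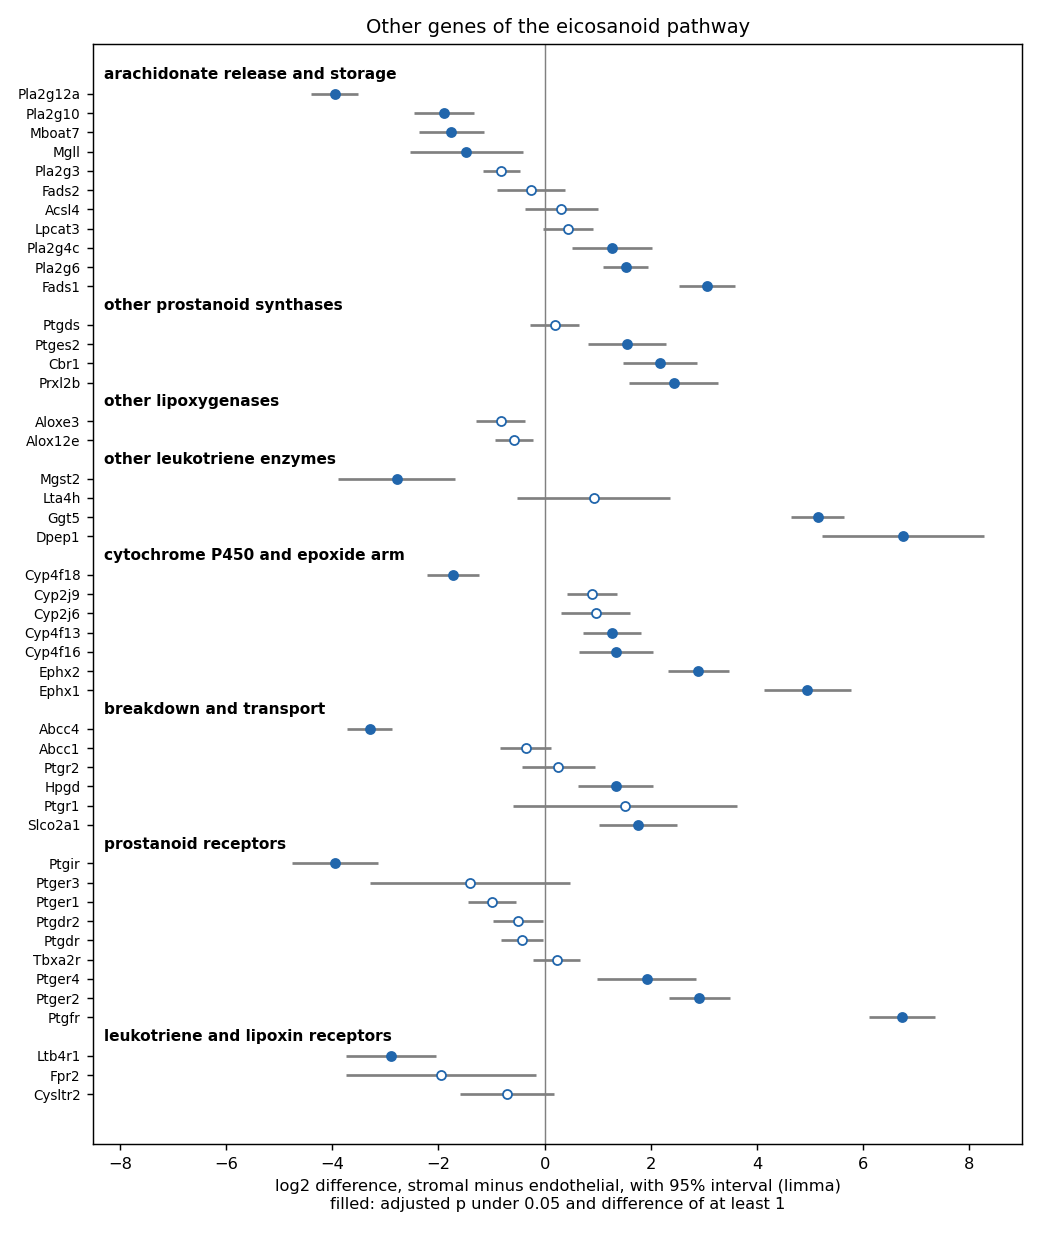
Log2 difference, stromal minus endothelial (horizontal axis), of the 46 tested pathway genes that are not members (rows, by role), with points for the difference, grey lines for the 95% interval and filled points for called genes. Dpep1, Ptgfr and Ggt5 lie farthest to the right and Pla2g12a and Ptgir farthest to the left.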

How the data were processed

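The deposited values are log2 expression values, produced by the authors through RMA in Affymetrix Expression Console 1.1, per the submitters' processing notes. Which arrays were normalized together is not given in the sources used here. All 7 columns were used, and none was identical to another. Precision is limited by the number of arrays, since depth does not apply to them. Symbols came from the platform annotation, in which 34945 probe sets have 1 symbol, 932 several and 9160 none, besides 64 controls. Unmatched symbols were sought only through the gene identifier in RefSeq's table for GRCm38.p6, which matched Fam213b to Prxl2b.

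For each of 18193 genes the probe set of highest mean over all arrays was kept, and 13995 genes with at least 3 arrays above their own 40th percentile were tested with limma 3.58.1 (lmFit, eBayes, no covariates) in R 4.3.3 and Benjamini-Hochberg adjustment. The same fit over all probe sets gave the background for the members. The call rule was an adjusted p below 0.05 together with a log2 difference of 1 or more in size. On simulated data with 50 changed genes per size, the fit recovered 22 of those changed by 1.5 on the log2 scale, 41 of those changed by 2, 46 of those by 3 and 45 of those by 4, and 6 unchanged genes were called among 13688. The members, gene lists, tests and alternatives were chosen with earlier results of these data known, and the GC box motif after the sequences were seen. Named were all members, up to 20 called pathway genes by size of difference, and the 4 genes nearest in profile to Alox12 and to Ptgis among genes tested, passing over unnamed gene models. The marker lists of B lineage, erythroid and T and NK cells had 4 of 7, 2 of 4 and 2 of 4 tested genes higher on the endothelial samples. In the B-lineage list 1 gene, Ebf1, was higher on the stromal samples. Of the neutrophil and the mast cell and basophil markers tested, 6 of 9 and 4 of 5 were higher on the endothelial samples. Of the sorting antigen genes, Icam1 and Enpep were higher on the stromal and Pecam1 and Ptprc on the endothelial samples.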

Additional observations from a re-analysis of the deposited data

Results flagged for a closer look

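Among 37 sets of 4 stromal values checked, of which chance flags about 1 in 20, 2 held an array far from the others. Pla2g12a lay at 5.39 on stromal 4, against 5.87 to 5.89 on stromal 1 to 3. Fads1 lay at 9.95 on stromal 3, against 10.21 to 10.25 on the other 3 stromal samples. Both gaps are small beside the differences between the populations, -3.95 and 3.06.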

How the results depend on the processing

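The mean difference of Alox12 and Tbxas1 was -7.56 after cyclic loess, that of Ptgs2, Ptges and Ptgis 1.31 with the hybridisation-control block, and that of Alox5, Alox5ap and Ltc4s -3.50 without suffixed probe sets, which leave out Ltc4s. With adjusted p alone, 4412 genes were higher on the endothelial samples, against 2252 with the required size. With 1 array at a time left out, these means ranged from -7.28 to -6.73, 0.58 to 1.18 and -2.67 to -2.40, and the pathway calls from 16 to 20 toward the stromal and from 9 to 11 toward the endothelial samples. Over all alternatives the pathway calls ranged from 13 to 20 and from 7 to 13. Among the 20 named pathway genes no difference changed sign, and calls were lost for Slco2a1, Ptges2 and Ptger4 as given above. No called member probe set changed sign under the alternatives run. The median difference over all genes tested was 0.19 as deposited, -0.13 after a second quantile normalization and -0.03 after cyclic loess. Replicate numbers are shared by label only. The deviations of same-numbered arrays from their group means correlated across genes at -0.00, 0.03 and 0.12, not every array correlated best with its own number, and the replicate block gave 4176 and 2278 genes, and 17 and 10 pathway genes. The 40th percentile limits what Ptgs2 and the dim populations of Alox12 and Ptgis can show. Among the named pathway genes, the stromal means of Pla2g10 and Cyp4f18 and the endothelial means of Ptger2, Ephx1 and Ptgfr were dim too.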
